A study of Mus musculus with 6 samples.

Results

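Basic helix-loop-helix (bHLH) factors are transcription factors that bind DNA as pairs, and those of the nervous system switch progenitors into neurons. The proneural and neuronal bHLH factors described here are 9 genes of the 39179 gene rows in each count file, chosen by name: Neurog2, Atoh7, Olig2 and Neurod4, which act mainly in dividing progenitors and their newest daughters, and Neurod1, Nhlh1, Nhlh2, Neurod2 and Neurod6, which act mainly in cells that have left the cell cycle. The division is a convention, since Neurod1 and Neurod4 are also switched on around the last division. All 9 passed the filter on low counts. They were measured by bulk RNA sequencing of retinas from mice of mixed, mostly CD-1 background at postnatal day 0.5, comparing 3 conditional knockouts of Lhx2 with 3 controls. Lhx2 is a LIM homeodomain factor of retinal progenitors that is also needed for Müller glia, the last retinal cell type to form. The knockouts (cKO 1, 2 and 3) carried floxed Lhx2 alleles (Lhx2 lox/lox) and Pdgfra-Cre, in which the Pdgfra promoter drives the recombinase that removes the floxed part. The controls (control 2, 3 and 4) carried the same Lhx2 lox/lox alleles and no Cre, and are called wild type in the series text. The whole retina was sequenced, and the sources used here do not state what share of its cells had expressed Cre.

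In this family a neural bHLH protein pairs with a widely expressed E protein (Tcf3, Tcf4 or Tcf12) and binds the E-box, a short DNA word written CANNTG. Id proteins capture the E proteins, and Hes and Hey proteins, driven largely by Notch, repress the proneural genes, so that progenitors stay undifferentiated while these inhibitors are high. In the retina Neurog2 is a proneural factor of dividing progenitors, Atoh7 is required for ganglion cells, Olig2 marks progenitors close to their last division, and Neurod1 and Neurod4 act in photoreceptor, amacrine and bipolar precursors. Nhlh1 and Nhlh2 are active in newborn neurons in many parts of the nervous system, and Neurod2 and Neurod6 mark subsets of amacrine and other neurons.

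The libraries held 31483170 to 66947478 reads on genes, and they fell into 2 sets that cross genotype. Set A held cKO 1, cKO 2 and control 2, with 3.13 to 3.20% of all deposited counts ambiguous between genes, and set B held cKO 3, control 3 and control 4, with 2.63 to 2.69%. The sets also differed in the share of gene counts from mitochondrial genes (7.14 to 9.55% in set B, but 1.15 to 1.79% in the libraries of set A), and the labels give them no counterpart. Fold changes therefore come from edgeR's quasi-likelihood test with library set as a term unless another model is named, with p-values adjusted by the Benjamini-Hochberg method over all 16691 genes tested. Set A held 1 control and set B held 1 cKO library, so each within-set value has 1 library on one side. With control 2 or cKO 3 left out, the genotype term rests on the set that keeps both groups. By 4 Y-linked genes control 2 and control 4 were male and the other 4 libraries female, so sex is partly tied to genotype. Lhx2 itself stood at 252, 287 and 224 CPM (gene reads scaled to a fixed library total) in cKO 1, 2 and 3 and at 399, 266 and 258 CPM in controls 2, 3 and 4 (log2 fold change -0.40, SE 0.10, adjusted p = 0.0338, edgeR), a call that did not pass once sex joined the model (adjusted p = 0.371) or with genotype alone (adjusted p = 0.817). The Lhx2 call was also lost without control 2 (-0.22, adjusted p = 0.414), control 3 (-0.42, adjusted p = 0.0794), cKO 2 (-0.41, adjusted p = 0.0602) or cKO 3 (-0.54, adjusted p = 0.0727, all edgeR). Pdgfra differed little (log2 fold change -0.01, SE 0.12, adjusted p = 0.968, edgeR).

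Factors of postmitotic neurons were mostly higher in the Lhx2 cKO retinas, while those of progenitors were level or lower and mostly did not pass the test. Of the 5 postmitotic members, Nhlh1, Neurod6, Neurod2 and Nhlh2 rose and Neurod1 did not pass the threshold of 0.05. Of the 4 progenitor members, Olig2 fell and Neurog2, Atoh7 and Neurod4 did not pass. Thus 4 of the 9 rose, where 6.36% of all tested genes did, and 1 of the 9 fell, where 5.63% of all tested genes did. The members were chosen with earlier results of these data known, so these shares describe them and test nothing. The median log2 fold change was 1.46 over the 5 postmitotic members and -0.43 over the 4 progenitor members, beside -0.00098 over all tested genes. All 3 cKO libraries lay on one side of all 3 controls for Nhlh1, Neurod2, Neurod6 and Olig2, which is 4 of 9 members beside 13.9% of all tested genes. The cKO libraries were the higher ones for 3 of these, beside 8.38% of all tested genes, and the lower ones for 1, beside 5.54%. Within both library sets the groups stood apart on the same side for 7 members (Neurod4, Neurod1 and Nhlh2 in addition), beside 46.7% of all tested genes.

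**Figure D1:**
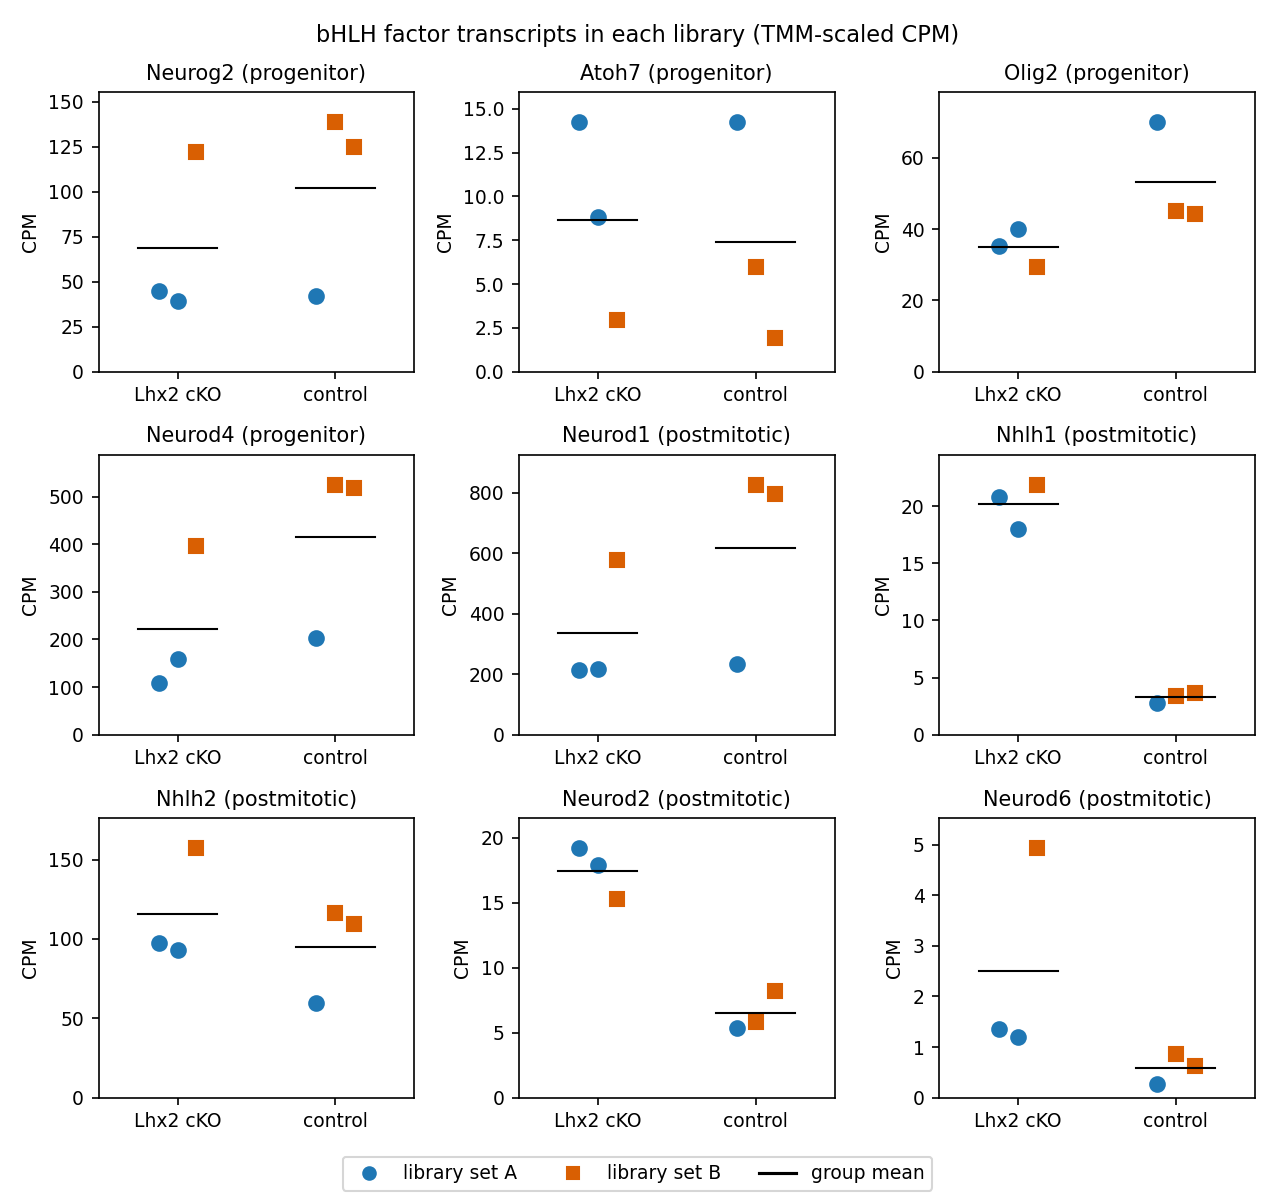
Expression of the 9 bHLH factors in each library, in CPM scaled by TMM, with Lhx2 cKO on the left and control on the right of each panel (n = 3 each). Points are libraries, circles set A and squares set B, and lines are group means. Nhlh1 stands at 18.0 to 21.9 CPM in cKO and 2.73 to 3.68 CPM in control libraries, whereas Neurog2, Neurod4 and Neurod1 separate by set more than by genotype.

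Nhlh1 (ENSMUSG00000051251; GRCm38 chromosome 1, 172052292 to 172057573, minus strand, 2 exons), a factor switched on briefly in neurons just after their birth, changed most clearly. Nhlh1 was at 20.8, 18.0 and 21.9 CPM in cKO 1, 2 and 3, against 2.73, 3.38 and 3.68 CPM in controls 2, 3 and 4. Every cKO library was several times above every control, and the spread within each group was small beside the gap between them. The mean was 20.2 ± 2.0 CPM in cKO and 3.26 ± 0.484 CPM in controls (SD, n = 3 each), a fold of 6.61 in the model (log2 fold change 2.72, SE 0.14, adjusted p = 1.09e-05, edgeR). The rise was alike in both sets, at 2.83 on the log2 scale within set A and 2.63 within set B. It was also 2.69 between cKO 3 and control 3, a pair of libraries of the same set and the same sex. Nhlh1 was the one member that passed with genotype alone (2.63, SE 0.22, adjusted p = 0.0274, edgeR), where 0.216% of all tested genes rose and 0% fell. It was likewise the one member that passed once sex joined the model (2.76, SE 0.24, adjusted p = 0.00398, edgeR), where 1.41% of all tested genes passed (1.04% higher and 0.377% lower).

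Nhlh2 (ENSMUSG00000048540; chromosome 3, 102010076 to 102015492, plus strand), the close paralog of Nhlh1, rose much less from a higher level. Nhlh2 was at 97.5, 92.7 and 157 CPM in cKO 1, 2 and 3, against 59.9, 116 and 109 CPM in controls 2, 3 and 4. The groups overlapped, set B being higher than set A in both genotypes, but within each set every cKO library was above every control. The log2 fold change was 0.57 (SE 0.08, adjusted p = 0.00465, edgeR), and it came to 0.67 in set A alone and 0.48 in set B alone. Nhlh2 no longer passed without control 2 (0.48, adjusted p = 0.0641, edgeR), once sex joined the model (0.48, adjusted p = 0.141, edgeR) or with genotype alone (0.28, adjusted p = 0.818, edgeR).

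Neurod2 (ENSMUSG00000038255; chromosome 11, 98325415 to 98329648, minus strand, 2 exons), a neuronal differentiation factor best known from the forebrain, was also higher in every cKO library. It was at 19.2, 17.9 and 15.3 CPM in cKO 1, 2 and 3, against 5.38, 5.83 and 8.22 CPM in controls 2, 3 and 4. The groups did not overlap, and the gap was wider in set A (1.79 on the log2 scale) than in set B (1.13). The log2 fold change was 1.46 (SE 0.20, adjusted p = 0.00309, edgeR), and leaving out any single library kept it past the threshold (adjusted p = 0.00256 to 0.0261). With sex as a further term the value was 1.65 (SE 0.32, adjusted p = 0.0619, edgeR), and with genotype alone it was 1.43 (SE 0.24, adjusted p = 0.140, edgeR).

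Neurod6 (ENSMUSG00000037984; chromosome 6, 55677822 to 55681263, minus strand, 2 exons), which marks a subset of amacrine cells in the mouse retina and cortical excitatory neurons, was the rarest member in both groups. It had 1.36, 1.20 and 4.94 CPM in cKO 1, 2 and 3, against 0.262, 0.868 and 0.630 CPM in controls 2, 3 and 4. These values rest on 76, 87 and 145 reads in the cKO libraries and on 12, 29 and 19 reads in the controls. The groups did not overlap, but cKO 3 stood well above the other cKO libraries and the lowest control was the one of set A. The log2 fold change was 2.54 (SE 0.30, adjusted p = 0.00177, edgeR), and it came to 2.29 in set A alone and 2.72 in set B alone. The call did not hold without cKO 3 (2.30, adjusted p = 0.0710, edgeR), once sex joined the model (2.38, adjusted p = 0.0532, edgeR) or with genotype alone (2.09, adjusted p = 0.529, edgeR).

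Neurod1 (ENSMUSG00000034701; chromosome 2, 79452521 to 79456751, minus strand, 2 exons), a factor of photoreceptor and amacrine precursors, did not follow the other postmitotic members. It was at 214, 218 and 577 CPM in cKO 1, 2 and 3, against 233, 826 and 797 CPM in controls 2, 3 and 4. Each cKO library was below the controls of its own set, by little in set A (-0.11 on the log2 scale) and by more in set B (-0.49). Its change, -0.30 on the log2 scale with an SE of 0.10, did not pass (adjusted p = 0.0965, edgeR). Leaving out single libraries gave -0.49 (without control 2) to -0.08 (without cKO 3, adjusted p = 0.816, edgeR). Of these fits only the one without cKO 1 gained the call (-0.32, adjusted p = 0.0470, edgeR). Over all 16 other settings Neurod1 was called lower in 4, the threshold of 0.1 included. The value was -0.41 in the model with sex (adjusted p = 0.265) and -0.88 with genotype alone (adjusted p = 0.817, both edgeR). Of the exon length of Neurod1, 7.37% overlaps exons of Cerkl on the same strand and 5.64% overlaps a noncoding gene on the other strand, and reads there may have been set aside as ambiguous. No other member shares exon sequence with another annotated gene.

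Olig2 (ENSMUSG00000039830; chromosome 16, 91225457 to 91228677, plus strand, 2 exons), which in the retina marks progenitors near their final division and elsewhere the oligodendrocyte lineage, was the member that fell. It was at 35.2, 40.1 and 29.5 CPM in cKO 1, 2 and 3, against 70.0, 45.0 and 44.3 CPM in controls 2, 3 and 4. All cKO libraries were below all controls, and control 2 was the highest library. The log2 fold change was -0.75 (SE 0.10, adjusted p = 0.00278, edgeR), and it came to -0.90 in set A alone and -0.60 in set B alone. The call did not hold without control 2 (-0.60, adjusted p = 0.0585, edgeR), once sex joined the model (-0.70, adjusted p = 0.0917, edgeR) or with genotype alone (-0.61, adjusted p = 0.641, edgeR). None of the 6 tested oligodendrocyte lineage markers passed in the same model, where 1 of them (Mog, 0.59, SE 0.21) had the smallest adjusted p at 0.113, and Sox10, the lineage's defining factor, was at most 0.102 CPM in cKO and 0.197 CPM in control libraries. Olig1, listed with the other neural bHLH genes, had 3 to 163 reads per library and did not pass (-1.19, SE 0.61, adjusted p = 0.262, edgeR). Olig1 passed once sex joined the model (-3.305, SE 0.52, adjusted p = 0.0356, edgeR), but not with genotype alone (-0.17, adjusted p = 0.961, edgeR).

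Neurod4 (ENSMUSG00000048015; chromosome 10, 130268152 to 130280240, minus strand, 2 exons), a factor of amacrine and bipolar precursors, lay just beyond the threshold. It was at 108, 159.9 and 397 CPM in cKO 1, 2 and 3, against 204, 525 and 518 CPM in controls 2, 3 and 4. Within each set the cKO libraries were below the controls, although set B was far above set A in both genotypes. The log2 fold change was -0.50 (SE 0.14, adjusted p = 0.0514, edgeR). Neurod4 was called lower under 7 of the 16 other settings, the threshold of 0.1 included. It passed without cKO 1 (-0.37, adjusted p = 0.00392, edgeR) and without cKO 2 (-0.61, adjusted p = 0.0191, edgeR), and with the RLE scaling (-0.54, adjusted p = 0.0379, edgeR). It did not pass without any of the other 4 libraries (adjusted p up to 0.347, without control 2), in the model with sex (-0.46, adjusted p = 0.385) or with genotype alone (-0.91, adjusted p = 0.817, all edgeR).

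Neurog2 and Atoh7, which act earliest, showed no difference that passed. Neurog2 (ENSMUSG00000027967; chromosome 3, 127633135 to 127635631, plus strand, 2 exons) was at 44.8, 39.3 and 122 CPM in cKO 1, 2 and 3, against 42.3, 139 and 125 CPM in controls 2, 3 and 4. Its libraries separated by set and hardly by genotype, and the genotypes differed by -0.06 on the log2 scale, with an SE of 0.09 (adjusted p = 0.735, edgeR). Atoh7 (ENSMUSG00000036816; chromosome 10, 63099651 to 63101279, plus strand, 1 exon), the gene that gives progenitors the competence to make ganglion cells, was at 14.2, 8.80 and 2.96 CPM in cKO 1, 2 and 3, against 14.2, 5.95 and 1.92 CPM in controls 2, 3 and 4. It was low in set B and varied widely within both groups, so that its log2 fold change of -0.36 carried an SE of 0.37 (adjusted p = 0.601, edgeR). The value was -1.29 (SE 0.41, adjusted p = 0.172, edgeR) once sex joined the model and 0.23 (adjusted p = 0.923, edgeR) with genotype alone.

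**Figure D2:**
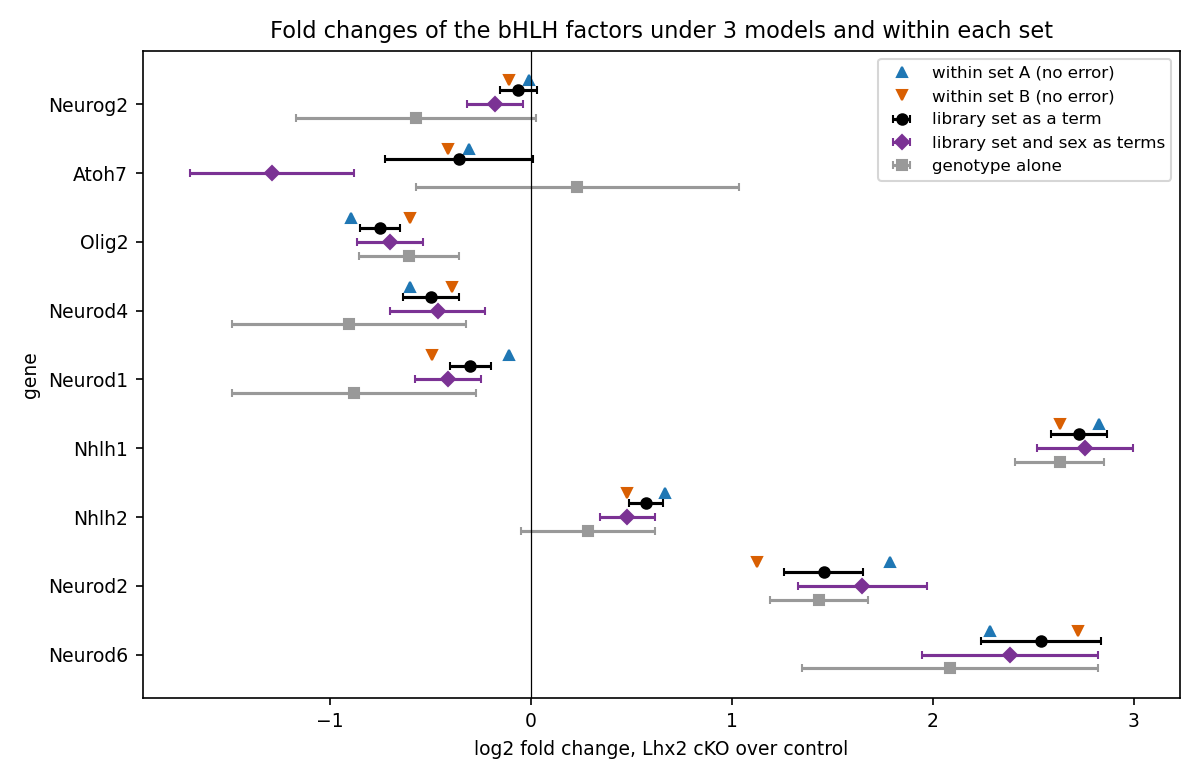
Log2 fold changes of Lhx2 cKO over control for each bHLH factor under 3 edgeR models, with bars of 1 SE, and the log2 ratio of group means within each library set, without error. Nhlh1 lies between 2.63 and 2.83 in all of them, while Atoh7 ranges from -1.29 to 0.23.

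The set difference was larger than the genotype difference for several members, and its direction depended on the gene. Neurog2 was 2.91-fold higher in set B than in set A among cKO libraries and 3.11-fold higher among controls. Among cKO libraries the same ratio was 2.67 for Neurod1, 2.96 for Neurod4 and 3.86 for Neurod6, and among controls it was 3.49 for Neurod1, 2.56 for Neurod4 and 2.85 for Neurod6. For Neurod6, however, the genotype difference was larger than its set difference, with a fold of 5.81 in the model. Atoh7 went the other way, with ratios of 0.257 among cKO libraries and 0.276 among controls. Nhlh1 was nearly the same in both sets, with ratios of 1.13 in cKO and 1.29 in controls. The interaction of set and genotype, which asks whether the genotype difference itself depended on set, did not pass for any of the 9 members (adjusted p = 0.975 to 0.997, edgeR), beside 0.0240% of all tested genes.

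The balance of the family was summarised in each library as the mean log2 CPM of the 5 postmitotic members minus that of the 4 progenitor members. It was -0.61, -0.68 and -0.07 in cKO 1, 2 and 3, against -2.57, -1.91 and -1.45 in controls 2, 3 and 4. All cKO libraries were above all controls, and set B was above set A within each genotype. The mean was -0.45 ± 0.33 in cKO and -1.97 ± 0.56 in controls (SD, n = 3 each), and cKO exceeded control by 1.92 in set A and by 1.61 among set B libraries. This is a description with no test, since the members were chosen with results of these data known. The difference comes mostly from the postmitotic side. Its mean log2 CPM was 4.70, 4.59 and 5.44 in cKO 1, 2 and 3, against 3.20, 4.15 and 4.16 in controls 2, 3 and 4. The progenitor mean was 5.30, 5.27 and 5.51 in cKO 1, 2 and 3, against 5.76, 6.06 and 5.61 in controls 2, 3 and 4. Each member weighs the same in these means, whatever its level. The summed level of the 5 postmitotic members overlapped between the groups, at 348 to 777 CPM in cKO and 301 to 953 CPM in controls.

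**Figure D3:**
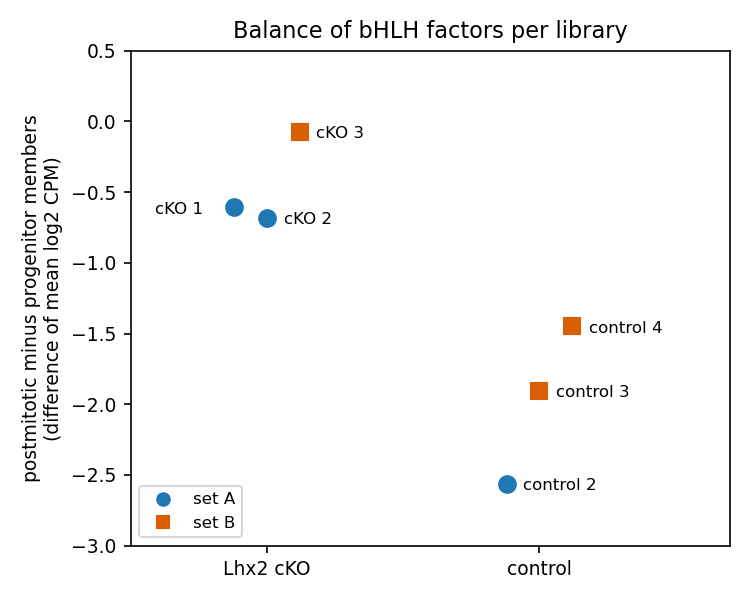
Mean log2 CPM of the 5 postmitotic bHLH factors minus that of the 4 progenitor factors in each library, with Lhx2 cKO on the left and control on the right. Circles are set A and squares set B. The cKO libraries lie between -0.68 and -0.07 and the controls between -2.57 and -1.45.

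The abundance of the members spanned more than the genotype difference of any of them. On the scale of RPKM, which is CPM per kilobase of exon, Neurod1 was the most abundant in both groups, with 123 ± 76.4 RPKM in cKO and 227 ± 123 RPKM in controls (SD, n = 3 each). Neurod4 followed with 66.3 ± 46.0 RPKM in cKO and 124 ± 54.8 RPKM in controls, and Neurog2 with 30.9 ± 20.8 RPKM in cKO and 45.8 ± 23.4 RPKM in controls. The ranges of these neighbours overlapped within each group, although Neurod1 was above Neurod4 in every library. In cKO the order went on with Nhlh2, Olig2, Nhlh1, Neurod2, Atoh7 and Neurod6, and in controls with Olig2, Nhlh2, Atoh7, Neurod2, Nhlh1 and Neurod6. Nhlh1 thus held the sixth place in cKO with 8.21 ± 0.811 RPKM, clear of Neurod2 below it, and the eighth in controls with 1.32 ± 0.196 RPKM, clear of Neurod2 above it. Neurod2 and Atoh7 overlapped in both groups, and Neurod6 was last in both, with 1.16 ± 0.983 RPKM in cKO and 0.273 ± 0.142 RPKM in controls. With the longest transcript in place of all exons the level of Nhlh2 became 29.4 RPKM in cKO and 24.1 RPKM in controls, above Olig2 in both.

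The promoters of the 5 members that passed are shown because the results turn on these genes (4 rose and Olig2 fell) and because the E-box is the word that the family itself binds. Each sequence is the 250 bases before the RefSeq start on GRCm38.p6, read on the strand of the gene, with every match to CANNTG in capitals.
Nhlh1, chr1:172057597-172057846, minus strand: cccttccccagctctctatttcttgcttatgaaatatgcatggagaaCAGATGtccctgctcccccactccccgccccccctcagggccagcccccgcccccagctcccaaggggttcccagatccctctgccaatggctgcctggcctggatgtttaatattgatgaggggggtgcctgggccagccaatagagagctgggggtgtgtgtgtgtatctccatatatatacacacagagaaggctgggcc
Nhlh2, chr3:102009895-102010144, plus strand: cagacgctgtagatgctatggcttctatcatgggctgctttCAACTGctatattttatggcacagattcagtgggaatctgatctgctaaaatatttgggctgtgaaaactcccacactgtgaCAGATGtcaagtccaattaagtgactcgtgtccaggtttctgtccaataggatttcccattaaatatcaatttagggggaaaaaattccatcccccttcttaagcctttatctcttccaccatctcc
Neurod2, chr11:98329646-98329895, minus strand: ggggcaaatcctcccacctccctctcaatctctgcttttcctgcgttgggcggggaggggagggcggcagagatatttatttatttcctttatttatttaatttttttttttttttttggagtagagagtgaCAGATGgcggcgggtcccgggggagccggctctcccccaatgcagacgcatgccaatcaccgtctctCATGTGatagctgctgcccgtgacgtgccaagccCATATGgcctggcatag
Neurod6, chr6:55681264-55681513, minus strand: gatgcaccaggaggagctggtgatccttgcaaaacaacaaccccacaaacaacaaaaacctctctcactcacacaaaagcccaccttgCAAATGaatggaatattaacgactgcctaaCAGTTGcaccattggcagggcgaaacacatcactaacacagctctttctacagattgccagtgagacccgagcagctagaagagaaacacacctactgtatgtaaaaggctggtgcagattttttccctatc
Olig2, chr16:91225300-91225549, plus strand: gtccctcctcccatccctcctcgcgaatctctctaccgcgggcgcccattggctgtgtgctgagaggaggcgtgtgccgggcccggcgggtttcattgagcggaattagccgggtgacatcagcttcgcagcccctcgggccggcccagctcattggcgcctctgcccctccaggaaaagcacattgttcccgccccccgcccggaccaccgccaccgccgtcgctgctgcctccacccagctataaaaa

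All 9 members had a promoter in the RefSeq table. The windows of the 4 members that rose held 1 match to CANNTG for Nhlh1, 2 for Nhlh2, 3 for Neurod2 and 2 for Neurod6, and the window of Olig2 held none of these letters. Among the members that did not pass, Atoh7 had 3 matches and Neurod1 1, while Neurog2 and both annotated starts of Neurod4 had none. The word reads the same on both strands, and 66.2% of the 32841 promoter windows of this length held at least 1 match. Nhlh1, Nhlh2, Neurod2 and Atoh7 held the form CAGATG, searched on both strands and contained in CANNTG, which was present in 14.4% of all windows. The form CATATG, also contained in CANNTG, occurred in Neurod2 and Neurod1 and in 3.47% of all windows. TAATTA, the core bound by LIM homeodomain proteins and the same on both strands, was found in no member's window and in 4.84% of all windows. A match is a description of the letters and not of binding.

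Of the other neural bHLH genes, more were lower than higher in the cKO retinas. Of 13 listed, 9 were tested, of which 4 fell, 1 rose and 4 did not pass (median log2 fold change -0.79, beside -0.00098 over all tested genes). On the log2 scale Neurog1 fell by 1.51 (SE 0.29, adjusted p = 0.0120, edgeR), Atoh8 fell by 1.03 (SE 0.13, adjusted p = 0.00265, edgeR), and Ptf1a, which directs cells to amacrine and horizontal fates, fell by 0.79 (SE 0.19, adjusted p = 0.0328, edgeR). Bhlhe23 rose from a trace, with 49 reads over the cKO libraries and 2 over the controls, a ratio of 17 (95% interval 4.46 to 144, counting error only; adjusted p = 0.0216, edgeR). With sex as a further term none of these 4 genes passed (adjusted p = 0.0839 to 0.1885, edgeR). They did not pass with genotype alone either (adjusted p = 0.271 to 0.817, edgeR). In the model with sex 2 others of the list fell, Olig1 among them. The list held no gene that rose when control 2, control 3, control 4, cKO 2 or cKO 3 was left out, and 2 that fell without control 2 or without cKO 3. Bhlhe22, an amacrine and bipolar factor, did not differ detectably (0.01, SE 0.09, adjusted p = 0.957, edgeR).

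The partners and inhibitors of the family moved less uniformly. Of the 3 E protein genes, Tcf3 fell, with a log2 value of -0.36 (SE 0.08, adjusted p = 0.0193, edgeR), while Tcf4 (-0.08, SE 0.12) and Tcf12 (0.06, SE 0.12) did not pass. Of 12 genes for Hes, Hey, Bhlhe40-type and Id inhibitors, 4 fell, 1 rose and 7 did not pass (median -0.37). Id1 was at 41.7, 27.0 and 28.7 CPM in cKO 1, 2 and 3, against 89.5, 87.1 and 88.6 CPM in controls 2, 3 and 4 (log2 fold change -1.50, SE 0.16, adjusted p = 0.00114, edgeR). Id2 (-1.25, SE 0.13, adjusted p = 0.00103), Hes1 (-0.82, SE 0.10, adjusted p = 0.00185) and Hey1 (-0.50, SE 0.11, adjusted p = 0.0243, all edgeR) also fell. Id1 and Hes1 were the 2 of these that passed once sex joined the model (adjusted p = 0.0454 and 0.0275). Bhlhe40, a clock-linked repressor, rose by 0.71 (SE 0.19, adjusted p = 0.0400, edgeR). The calls of Tcf3 and Bhlhe40 were both lost when control 2, control 3, control 4, cKO 2 or cKO 3 was left out.

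Genes linked to the proneural factors in neuronal commitment moved in both directions. Of 15, 4 rose, 4 fell and 7 did not pass (median -0.01). The 4 that rose were Elavl4, an RNA-binding protein of neurons, by a log2 value of 0.92 (SE 0.10, adjusted p = 0.00137), Dcx, a microtubule protein of migrating neurons, by 0.75 (SE 0.09, adjusted p = 0.00224), and also Tubb3 (0.45, SE 0.08) and Elavl3 (0.43, SE 0.08, all edgeR). Of the 4 that fell, 3 encode the Notch ligands of newly committed cells, Dll4 (-0.77, SE 0.11, adjusted p = 0.00361), Dll1 (-0.57, SE 0.08, adjusted p = 0.00330) and Dll3 (-0.35, SE 0.09), and the last is the antiproliferative gene Btg2 (-0.34, SE 0.09, all edgeR). Insm1 (-0.20, SE 0.09, adjusted p = 0.182, edgeR) and Mfng (-0.02, SE 0.09, adjusted p = 0.920, edgeR) did not pass. With sex as a further term none of the 15 passed in edgeR (the smallest adjusted p was 0.0503 for Elavl4). Without control 2, 2 of the 15 rose and 1 fell, and without cKO 3 the counts were the same. Without control 3 there were 2 in each direction, and the falls also numbered 2 without control 4 or cKO 2.

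**Figure D4:**
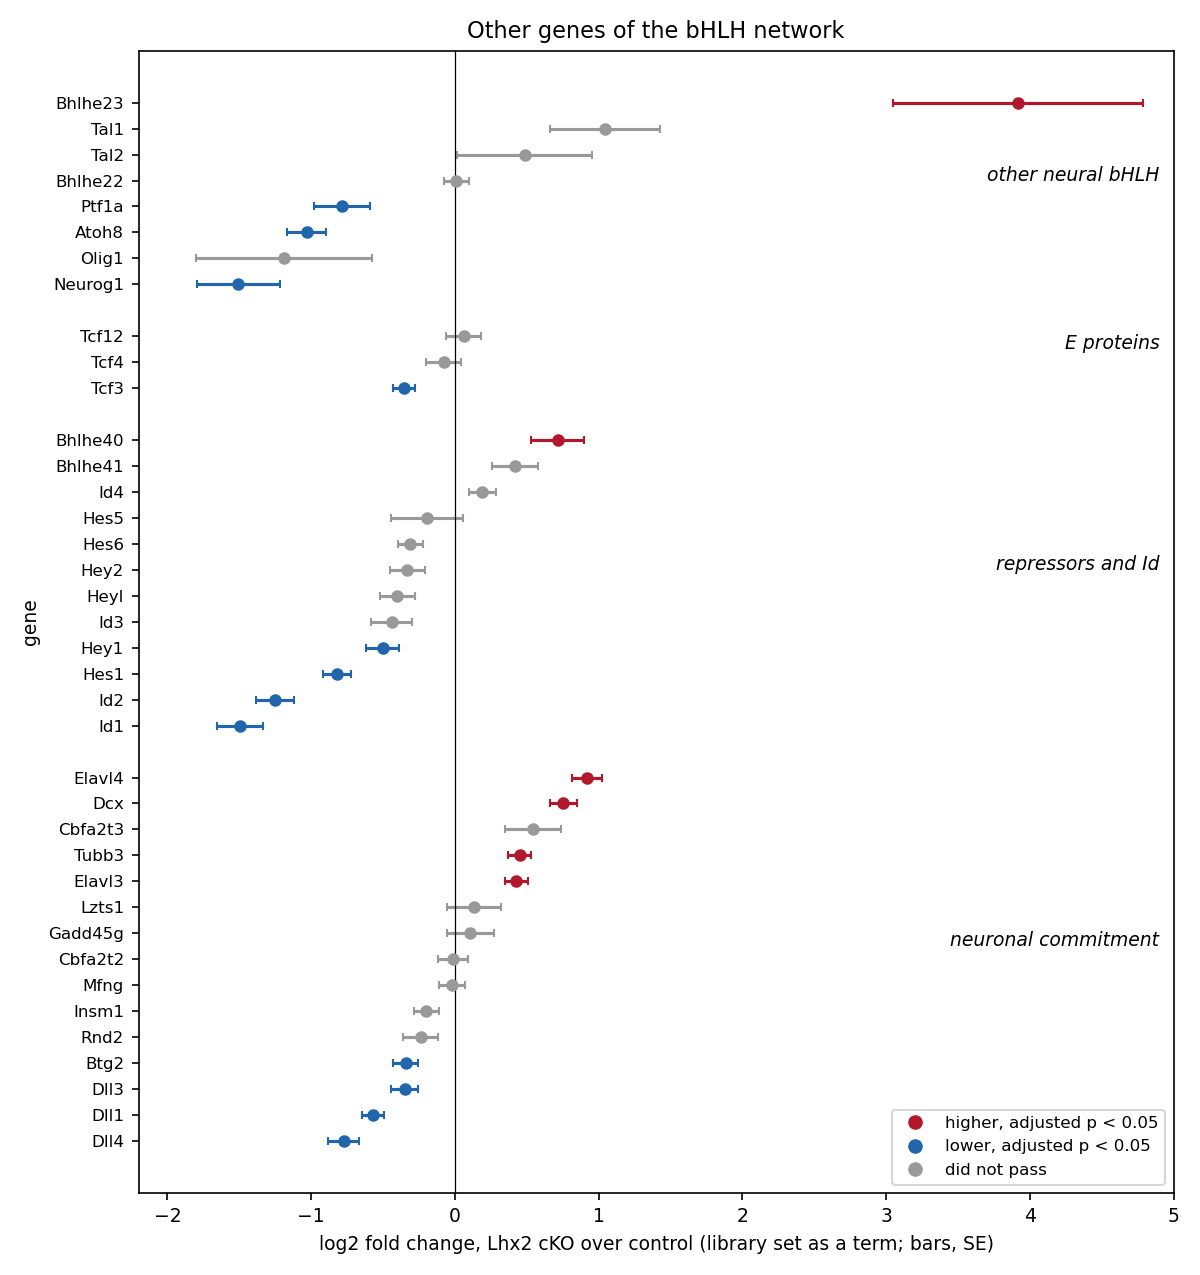
Log2 fold changes of Lhx2 cKO over control with bars of 1 SE, from edgeR with library set as a term, for tested genes of 4 lists: other neural bHLH factors, E proteins, repressors with Id proteins, and genes of neuronal commitment. Red and blue mark genes past adjusted p of 0.05. Neurog1 (-1.51) and Id1 (-1.50) lie lowest, and Elavl4 (0.92) and Dcx (0.75) are raised.

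Markers of several cell types also differed between the genotypes. Of 15 ganglion cell markers 13 rose and 2 did not pass (median 0.56), with a summed level of 2887 to 3828 CPM in cKO and 1938 to 2283 CPM in controls. Ebf3 (1.13, SE 0.10), Gap43 (0.98, SE 0.09), Pou4f3 (0.99, SE 0.13) and Pou4f1 (0.82, SE 0.10) had the smallest p of these. Of 20 cell cycle genes 19 fell and Mki67 did not pass (median -0.60), with 2792 to 3871 CPM in cKO and 5004 to 5758 CPM in controls. Without cKO 3, 5 of the cell cycle genes fell, beside 134 genes over all, and 5 ganglion markers rose, beside 176 genes over all. Without control 2, 4 of the cell cycle genes fell (168 over all), and without control 3, 8 ganglion markers rose (545 over all). In the model with sex, 1 cell cycle gene fell (63 over all) and 2 ganglion markers rose (173 over all). With genotype alone, 0 genes of either list passed. Of 13 retinal progenitor markers 10 fell, 1 rose and 2 did not pass (median -0.70), with 4442 to 6262 CPM in cKO and 8055 to 8421 CPM in controls, and 5 of them fell without control 2, 2 once sex joined the model and 0 with genotype alone. In whole retinas, fewer cells of a type and less RNA per cell cannot be told apart, and the part of these markers in the members' changes was not tested.

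Neurod2 and Neurod6 also mark neurons outside the retina, so forebrain markers were read as well. Of 15 listed, 11 were tested, of which 7 rose and 4 did not pass (median 0.67), with a summed level of 219 to 349 CPM in cKO and 174 to 211 CPM in controls. The cortical factors Emx1 and Emx2 were at most 0.0967 and 0.374 CPM in cKO libraries and at most 0.0874 and 0.539 CPM in controls, and Nkx2-1, of the hypothalamus and ventral forebrain, was at most 0.0276 CPM in any library. Tbr1, which marks both cortical neurons and a class of ganglion cells, rose by 1.79 (SE 0.19, adjusted p = 0.00118, edgeR). Slc17a6 rose by 0.67 (SE 0.08), but control retinas also expressed it, at 22.8, 48.6 and 48.9 CPM in controls 2, 3 and 4. Dlx5 rose from a trace, at 0.411 to 0.681 CPM in cKO and at most 0.0897 CPM in control libraries. The list is therefore not particular to forebrain. Of the forebrain markers 2 rose without cKO 3, 2 once sex joined the model and 1 with genotype alone. Their part in the rise of Neurod2 and Neurod6 was not tested.

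Amacrine and horizontal cell markers, by contrast, mostly did not pass. Of 11 amacrine markers 10 did not pass (median of the list -0.16), among them Ppp1r17 (-0.24, SE 0.16), with 627 to 1129 CPM summed over the list in cKO and 674 to 1271 CPM in controls. Of 5 horizontal cell markers Calb1 rose (2.54, SE 0.13, adjusted p = 1.22e-05, edgeR) and 4 did not pass (median 0.01). Of 8 photoreceptor precursor markers, 1 rose, the receptor gene Rxrg (0.69, SE 0.12), and 5 did not pass (median -0.11). The 2 that fell were Prdm1 (-0.48, SE 0.12), which holds precursors to the photoreceptor fate, and Otx2 (-0.45, SE 0.11), which is needed to make them. Of 4 tested bipolar markers, Trpm1 (2.36, SE 0.44), which pigment cells also express, and Cabp5 (0.82, SE 0.22) rose. Without cKO 3 no photoreceptor precursor or bipolar marker passed. Of the 10 lens markers 9 were tested and all of these rose (median 8.35), with 834 to 2272 CPM summed in cKO and 2.21 to 5.16 CPM in controls. Cryaa, a lens crystallin, stood at 1101, 1236 and 423 CPM in cKO 1, 2 and 3, against 1.29, 0.419 and 0.0994 CPM in controls 2, 3 and 4, and the part of lens RNA in the members' changes was not tested.

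Genes most like Olig2 and Neurod6 were found by the Pearson correlation of log2 CPM, centred within each library set, over the 6 libraries. Both members differ between the genotypes within each set, so this measure picks out any gene with a clear genotype difference, and it is given as a description. Among 12961 other genes with a mean of at least 2 CPM, the 3 most like Olig2 were Id2, Sf3a2 and Cdc25c, a mitotic phosphatase (r of at least 0.999). Id2 stood at 78.9, 97.2 and 40.7 CPM in cKO 1, 2 and 3, against 250.5, 81.6 and 78.4 CPM in controls 2, 3 and 4, a profile with the highest value in control 2 and the lowest in cKO 3 as for Olig2. The 3 most like Neurod6 were Adamts18, Cx3cr1 and Scn2a (also at least 0.999). With 6 libraries such values are common: 806 genes had r above 0.95 with Olig2 and 622 with Neurod6.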

How the data were processed

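Retinal RNA of 6 mice was sequenced, with Qiagen extraction and Illumina TruSeq libraries per the labels' protocols. Deposited values are raw read counts per Ensembl gene. The authors used GRCm38, edgeR, HTSeq and STAR, per the submitters' processing notes. Versions and strand setting: not given in the sources used here. The 5 rows naming no gene held 26.4 to 28.8% of deposited counts and stayed out of library sizes and tests. Symbols and lengths come from GENCODE M21 on GRCm38, which matched 37607 of 39179 identifiers, and promoters from RefSeq on GRCm38.p6. Groups follow the sample titles. The series text gives 3 mice per group, so libraries were treated as animals. No pair within a group was a duplicate (chi-square per degree of freedom 23.0 to 532).

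In R 4.3.3, edgeR 4.0.16 with filterByExpr, TMM scaling and the quasi-likelihood test was fitted to all libraries with terms for genotype and library set (set A: over 2.9% of counts ambiguous), leaving 3 residual degrees of freedom, and was tested on simulated data. SE was computed from the fold change and F. CPM were scaled by TMM, and RPKM used the union of exons. Members, lists, the library set term and tests were chosen with earlier results of these data known. Named were the 9 members, Lhx2, Pdgfra, up to 4 genes of each list with the smallest p past the threshold (2 where none passed), and the 3 genes most like Olig2 and Neurod6. Any further gene was chosen with its values in view. Settings also tried were different scalings, filters, terms and thresholds, DESeq2 1.42.0, limma 3.58.1 and leaving out each library. Counting intervals cover counting error only. Some genes of the lists are counted there but not reported here.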

Additional observations from a re-analysis of the deposited data

How the results depend on the processing

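Nhlh1 kept its direction and its call under all 16 other settings (log2 fold change 2.63 to 2.85). Neurod2 kept its call in 14 of 16 and Neurod6, Nhlh2 and Olig2 in 13 of 16, always in the same direction. With genotype alone, 1 member rose and 0 fell in edgeR (3 and 1 at unadjusted p under 0.05), beside 36 genes higher and 0 lower over all genes (831 and 461 unadjusted). With sex as a further term, 1 member rose and 0 fell (4 and 3 unadjusted), beside 173 genes higher and 63 lower (1611 and 1211 unadjusted). DESeq2 with library set called 4 members higher and 3 lower, beside 1204 genes higher and 1672 lower over all. The members that fell numbered 2 with the RLE scaling and 3 with no low-count filter or with a threshold of 0.1. The genes lower over all came to 1214 with the RLE scaling, 1592 with no filter and 1425 with a threshold of 0.1. Leaving out single libraries gave 3 to 4 members higher and 0 to 3 lower, and 176 to 1371 genes higher and 134 to 1336 lower over all. Values that did not pass changed sign for Neurog2 (-0.11 to 0.016 without single libraries, above 0 without cKO 3), Atoh7 (0.23 with genotype alone) and Pdgfra (0.052 with sex, 0.024 with no scaling, 0.0056 with a mean CPM of at least 1, 0.095 with the replicate block, and -0.089 to 0.060 without single libraries). The balance of postmitotic over progenitor members, 1.76 as the mean of both sets, was 2.18 without Neurod1. Of 448 list counts under alternatives, 92 moved by over 1.5 times. The cause was not tested.

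Label numbers 2 and 3 occur in both groups, but nothing says that they mark pairs, and same-numbered libraries are also of the same set. Deviations from the group means correlated at 0.77 and 0.67. A fit with the replicate block, with 1 residual degree of freedom, called 4 members higher and 3 lower (Olig2, Neurod4 and Atoh7), with 1007 genes higher and 1033 lower over all.

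Counting error is small for all members but Neurod6 and, in set B, Atoh7. Groups of 3 with sex and library set unevenly spread limit every comparison.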
